A study of Arabidopsis thaliana with 4 samples.

Results

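Expansins are wall-loosening proteins that plant cells secrete into their walls, and the genes described here are the expansins and expansin-like genes of Arabidopsis thaliana roots other than EXPA7 and EXPA18, the members known from root hairs. Members were taken by gene symbol: a probe set counted when the platform annotation listed exactly 1 gene for it and that symbol began with EXPA, EXPB, EXLA or EXLB followed by a number. This gave 16 genes, each with 1 probe set, among 22810 probe sets on the array. They comprised 8 alpha-expansins (EXPA), 4 beta-expansins (EXPB), 3 expansin-like A genes (EXLA) and 1 expansin-like B gene (EXLB). The RefSeq gene table of assembly TAIR10.1 holds 34 genes with such symbols, and those without a probe set of their own in the annotation were not analysed here. Of the 16 members, 10 reached the 40th percentile of their array on at least 2 of the 4 arrays and were tested, and the other 6 lay below it on all 4 arrays.

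Roots of accession Col-0 were taken from a mix of plants 4 to 5 weeks old, grown in hydroponic culture, that is, with the roots in liquid nutrient solution. Each of the 4 groups held 1 single-colour Affymetrix ATH1 array: control solution for 48 h, potassium-free solution for 48 h, control solution for 96 h and potassium-free solution for 96 h. All plants had come from control solution, and the control plants were moved to control solution again. The control solution held 0.5 mM KH2PO4 and 1.25 mM KNO3, and in the potassium-free solution these salts were replaced by 0.5 mM H3PO4 and 1.25 mM HNO3, so both solutions held the same phosphate and nitrate and differed in potassium and in the added acid. Nothing in the labels gives separate cultures, whether RNA was pooled, or the pH of the solutions.

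In growing plant cells, expansins let cellulose microfibrils and the matrix polymers between them slide apart without cutting either, and they act best when the wall is acid. Alpha- and beta-expansins are the classes known to loosen walls, whereas the expansin-like A and B proteins are placed in the family by their sequence and their action on walls is not established. Potassium is the main inorganic osmotic solute of plant cells, and its uptake feeds the turgor that drives the wall to extend once it has been loosened.

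The signals of both solutions are given as MAS5 intensities, a linear scale without unit, and differences as differences of log2(signal + 16), which understate the change of dim probe sets. A signal of 1 probe set is not set against that of another, since probe sets differ in how strongly they bind. Because each group held 1 array, a difference within a time or within a solution has no replicate error and no test. What could be tested was the mean difference over both times (starvation) or over both solutions (time), in limma, with 2 arrays on each side. In these bulk root samples, fewer cells of a type and less RNA per cell cannot be told apart.

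The arrays had nearly equal medians, from 46.8 to 47.8, and their 40th percentiles lay between 29.4 and 30.4. The control feature for 25S ribosomal RNA was high on the starved 48 h array, at 795.4, and between 58.7 and 73.1 elsewhere. Of the 64 control probe sets, 1 each was read for ubiquitin, GAPDH and the added CreX transcript, beside that for 25S ribosomal RNA. The control features read for ubiquitin, GAPDH and CreX were lowest on the control 96 h array. That for ubiquitin read 2266 there and 3074 to 3521 elsewhere, that for GAPDH 1763 against 1967 to 2542, and that for CreX 855.5 against 1495 to 1758. Each was highest on the starved 96 h array. Of the 9 genes listed as root markers, none had a probe set with 1 listed gene, so the tissue was checked on root hair genes alone. All 5 measured root hair genes of 7 listed reached the 40th percentile on at least 2 arrays, XTH26 on its 48 h arrays alone. Their summed signal was 2049 in control against 2535.5 in starved roots after 48 h, and 1372 against 1983 after 96 h. The summed signal of the 3 measured low-oxygen genes of 6 listed was 386 against 388 after 48 h and 1239 against 2037.5 after 96 h. The near-equal sums at 48 h held opposite moves, since AT4G17260 read 286 in control against 262 in starved roots, AT4G10270 72.9 against 95.8 and AT3G10040 27.2 against 30.4. Bright probe sets weigh most in such sums, and AT4G26010 gave 1236 of the root hair sum in control roots after 48 h. Of 8 green-tissue genes only RCA, the activase of the carbon-fixing enzyme Rubisco, was measured, at 134 against 128 after 48 h and 237 against 180.2 after 96 h. XTH26 read 14.2 in control and 24.3 in starved roots after 96 h, below the 40th percentile of both arrays. The summed root hair signal was higher in starved roots and lower at 96 h, and the summed low-oxygen signal was higher at 96 h, most of all in starved roots. The part of these genes in the expansin values below was not tested.

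The first question was which expansin transcripts differed between starved and control roots. Transcripts of the expansin-like gene EXLA1 stood lower in starved roots at both times. EXLA1 was the only tested member whose starvation difference passed the limma threshold. The expansin-like gene EXLB1 also stood lower at both times, by less than EXLA1. Of all tested probe sets, 15.55% at 48 h and 9.49% at 96 h lay at least as far below the control as EXLB1. Most alpha- and beta-expansins stood higher in starved roots at 96 h, led by EXPB3 and EXPA4, but at 48 h their directions were mixed and none of them passed the test. Over all 13998 tested probe sets 0.193% passed for starvation, 0.121% with a higher and 0.0714% with a lower level in starved roots. Among the 10 tested expansins 0 passed as higher and 1 as lower. An unadjusted p below 0.05 in limma was found for 5 of them and for 7.39% of all tested probe sets. EXLA3 is among these 5, and it entered the test through its control arrays alone, which built a lower starved level into its selection.

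**Figure D1:**
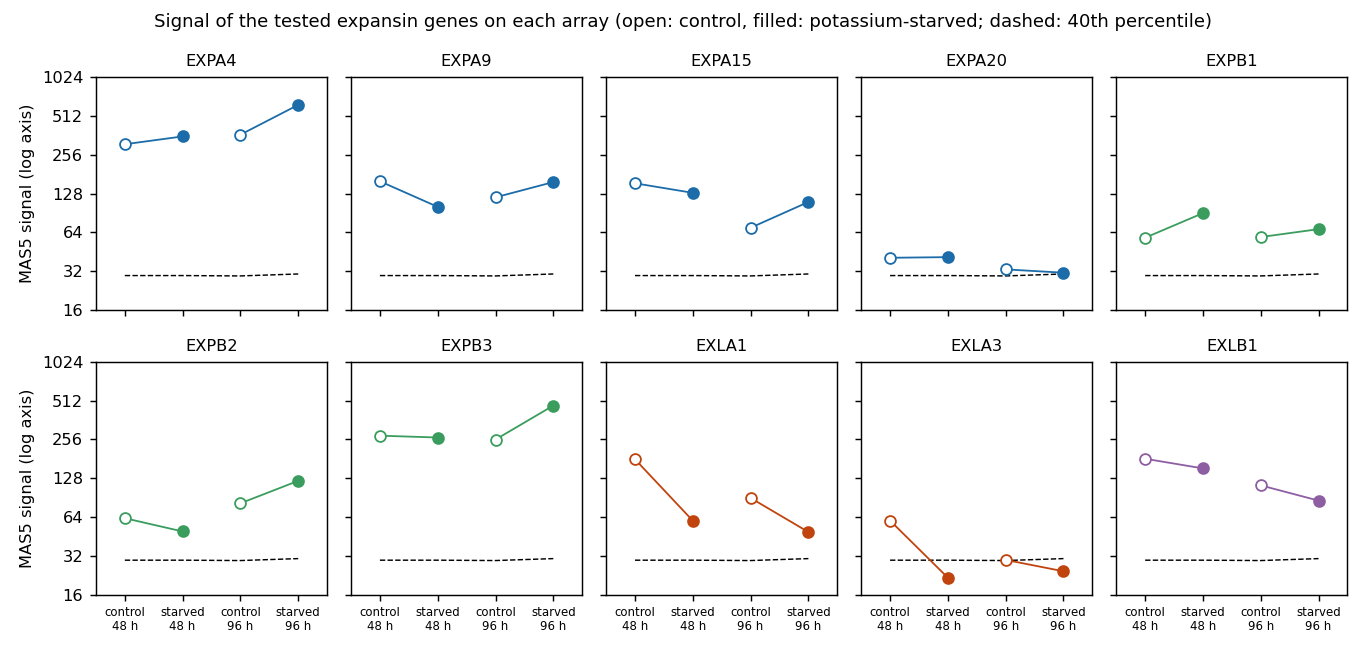
MAS5 signal (log axis) of the 10 tested expansin genes on each of the 4 arrays, with open points for control and filled points for starved roots, a line joining the 2 arrays of a time, and the 40th percentile of each array dashed. Blue panels are EXPA, green EXPB, red EXLA and purple EXLB genes; at 48 h EXLA1 drops from 179 to 59.9 under starvation, while EXPB3 is high on the starved 96 h array alone, at 468.

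EXLA1 (AT3G45970), an expansin-like A gene, read 179 in control against 59.9 in starved roots after 48 h, and 89.9 against 48.9 after 96 h. Both control arrays lay above both starved arrays, and the control 48 h array was the highest. The log2 difference, starved minus control, was -1.37 at 48 h and -0.71 at 96 h. At 48 h, 0.0286% of all tested probe sets lay at least as far below the control. The control feature for 25S ribosomal RNA was high on the starved 48 h array, at 795.4, and its part in the differences at 48 h was not tested. The mean over both times was -1.04 ± 0.17 (SE, 2 arrays per solution), a 2.05-fold lower level with an adjusted p of 0.0183 from limma. This call held in 4 of 10 other settings and ended whichever of the 4 arrays was left out (adjusted p of at least 0.9995 in limma without the time term, where 0 of all probe sets were called), while the difference stayed negative in each of these fits. The adjusted p over the 10 settings ran from 0.0184 to 1, and the call ended with a pseudocount of 1, equal medians, cyclic loess normalization, no filter, a filter at the 60th percentile, or no time term. Of the 4 settings that kept the call, the values as deposited nearly repeat the main fit, since each deposited array had a 2% trimmed mean of 100.01.

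EXLA3 (AT3G45960), the neighbour of EXLA1 on chromosome 3 with no protein-coding gene between them in the RefSeq order, read 59.99 in control against 21.6 in starved roots after 48 h. After 96 h it read 29.7 against 24.3. The control 48 h array stood above the other 3, which lay close together. The gene entered the test through its 2 control arrays alone, since both starved arrays were below their 40th percentile, so that a lower starved level was built into its selection. Its log2 difference was -1.01 at 48 h, a 2.02-fold lower level, and -0.18 at 96 h. The mean was -0.60 ± 0.20 (SE) and did not pass the limma threshold (adjusted p = 0.353). How far the probe sets of these neighbouring genes bind each other's transcripts was not tested.

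EXLA2 (AT4G38400), the expansin-like A gene known from work on Arabidopsis infected with the mould Botrytis, was below the filter and therefore untested. It read 21.8 in control against 1.04 in starved roots after 48 h, and 12.8 against 0.986 after 96 h. Both starved values lay near the floor of the measurement, so the size of the difference cannot be read from them, but both control arrays were above both starved arrays, as for EXLA1. EXLB1 (AT4G17030), the expansin-like B gene, read 181 in control against 152 in starved roots after 48 h, and 113 against 85.7 after 96 h. Within each time the starved array was the lower one, but the starved 48 h value exceeded the control 96 h value. Its log2 difference was -0.23 at 48 h and -0.34 at 96 h, and 15.55% and 9.49% of all tested probe sets lay at least as far below. The mean log2 difference of EXLB1 was -0.28 ± 0.15 (SE) and did not pass (limma, adjusted p = 0.747).

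At 48 h, EXLA1 was at least 2-fold lower, as 0.100% of all tested probe sets were, and so was EXLA3, which had entered the test through its high control arrays. At this time 0 members were at least 2-fold higher, against 0.0429%. At 96 h, 0 members were at least 2-fold apart in either direction, against 0.357% of tested probe sets higher and 0.493% lower. EXLA1 and EXLB1 lay below the control at both times under every scaling tried. EXLA3 is not counted here, since its selection fixed a lower starved level.

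Among the alpha-expansins, EXPA4 (AT2G39700) read 309 in control against 355 in starved roots after 48 h, and 366 against 624 after 96 h. The starved 96 h array stood above the other 3. The log2 difference was 0.19 at 48 h and 0.74 at 96 h, where 1.18% of tested probe sets were at least as far above the control. The mean of 0.47 ± 0.16 (SE) did not pass the limma threshold (adjusted p = 0.388), and without the starved 96 h array, in a model with the solution alone, it was 0.07.

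EXPA15 (AT2G03090), a second alpha-expansin, read 154 in control against 129.6 in starved roots after 48 h. After 96 h it read 69.5 against 110.1. Its lowest value was on the control 96 h array, and the solutions overlapped, with log2 differences of -0.22 at 48 h and 0.56 at 96 h. EXPA9 (AT5G02260) read 159 against 101 after 48 h and 119.7 against 157 after 96 h. Its control 48 h and starved 96 h arrays were high and about equal, so its differences of -0.58 and 0.35 ran in opposite directions. EXPA20 (AT4G38210) read 40.6 against 41.1 after 48 h and 33.0 against 31.1 after 96 h, with differences of 0.01 and -0.06, the smallest of the tested members on average.

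Among the beta-expansins, EXPB3 (AT4G28250) read 273 in control against 265 in starved roots after 48 h, and 255 against 468 after 96 h. The starved 96 h array alone was high, and the other 3 lay close together. The log2 difference was -0.04 at 48 h and 0.84 at 96 h, where 0.800% of tested probe sets were at least as far above the control. Its mean of 0.40 ± 0.19 (SE) did not pass in limma (adjusted p = 0.666) and was 0.00 without the starved 96 h array, in a model with the solution alone.

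EXPB2 (AT1G65680) read 62.6 in control against 49.4 in starved roots after 48 h and 81.7 against 122 after 96 h, with log2 differences of -0.27 and 0.50. It was lowest and highest on the 2 starved arrays, so the solutions overlapped. EXPB1 (AT2G20750) read 58.1 against 90.2 after 48 h and 58.9 against 67.8 after 96 h. For this gene both starved arrays lay above both control arrays, which were nearly equal. Its log2 differences were 0.52 and 0.16, and the mean of 0.34 ± 0.16 (SE) did not pass in limma (adjusted p = 0.661).

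**Figure D2:**
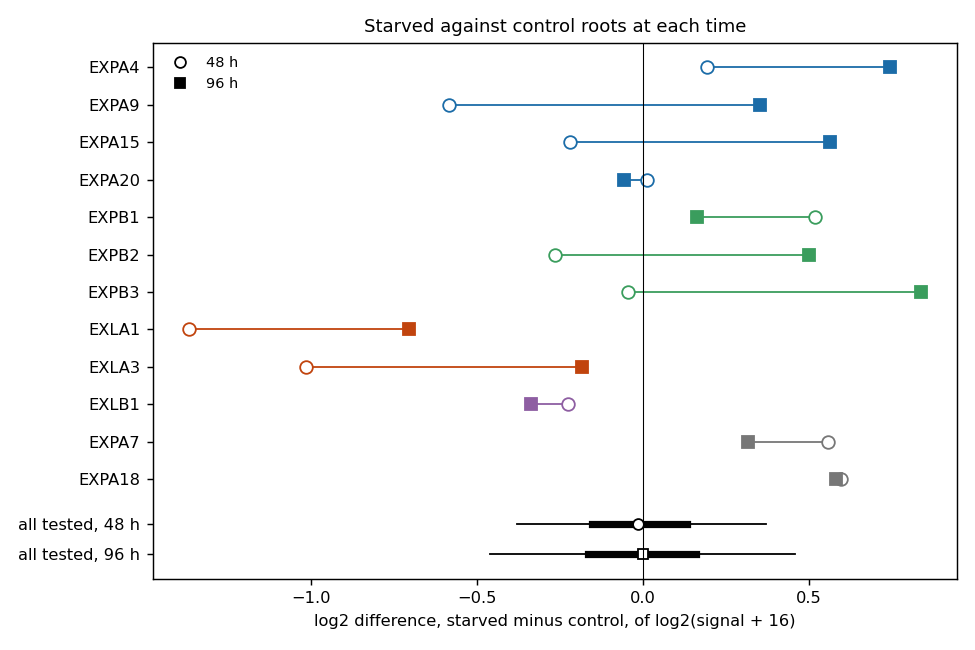
Difference of log2(signal + 16), starved minus control, at 48 h (open circles) and 96 h (squares) for each tested expansin and, in grey, for the root hair expansins EXPA7 and EXPA18. The lower rows give the median, the middle 50% (thick line) and the range from the 5th to the 95th percentile (thin line) of all 13998 tested probe sets; EXLA1 and EXLB1 lie left of 0 at both times, and EXPB3 reaches 0.84 at 96 h.

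Taking the 7 tested alpha- and beta-expansins as a group, 3 stood higher in starved roots at 48 h and 6 at 96 h, under the main and each other scaling. Of all tested probe sets 47.3% stood higher at 48 h and 49.9% at 96 h. The median of these 7 genes on the log2 scale was -0.04 after 48 h and 0.50 after 96 h, against -0.01 and 0.00 for all tested probe sets. In limma 0 of the 7 were called for starvation, with adjusted p-values from 0.388 to 1.000, and 3 had an unadjusted p below 0.05, against 7.39% of all tested probe sets. The differences at 96 h, those of EXPA4 and EXPB3 included, all rest on the same pair of arrays, between which the control features for CreX (855.5 in control against 1758 in starved roots), ubiquitin (2266 against 3521) and GAPDH (1763 against 2542) differed in the same direction, and their part was not tested. Whether the differences at 96 h differ from those at 48 h was not tested either, because 1 array per group leaves no error for it.

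EXPA7 and EXPA18, the expansins of root hair cells, stood higher in starved roots at both times, as did EXPA4 and EXPB1 among the tested members. EXPA18 read 135 in control against 212 in starved roots after 48 h, and 87.9 against 139 after 96 h. EXPA7 read 132 against 201 after 48 h and 84.5 against 109 after 96 h. Neither passed for starvation in limma (adjusted p = 0.150 and 0.357).

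The second question was what differed between the harvests at 96 h and 48 h. Transcripts of EXLB1 fell and those of EXPB2 rose in the limma test, and the remaining 8 tested members did not pass. Of all tested probe sets 7.35% passed for time, 4.11% as higher and 3.24% as lower at 96 h, beside 2 of the 10 tested expansins. These comparisons use the same 4 arrays as the comparisons of the solutions, so a high or low array enters both.

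EXLB1 was lower at 96 h in control roots (181 to 113) and in starved roots (152 to 85.7), and both 96 h arrays lay below both 48 h arrays. The log2 difference, 96 h minus 48 h, was -0.62 in control and -0.73 in starved roots. The mean of -0.67 ± 0.15 (SE, 2 arrays per time) corresponded to a 1.59-fold lower level, with an adjusted p of 0.00995 from limma. Among the 10 other settings, the deposited values nearly repeat the main fit. The call held in 8 of the 10, with adjusted p-values from 0.00937 to 0.123 in limma. Of the 4 fits that left out an array, and with it the solution term, it held without the control 96 h array (adjusted p = 0.00688 in limma) and ended without the control 48 h (0.385), starved 48 h (0.233) or starved 96 h array (0.118).

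EXPB2 was higher at 96 h in control roots (62.6 to 81.7) and in starved roots (49.4 to 122), again with no overlap between the times. The log2 difference was 0.31 in control and 1.08 in starved roots, and the latter made it the 1 tested member at least 2-fold higher, against 1.56% of all tested probe sets. On this scale of log2(signal + 16), 0 other tested members were at least 2-fold apart between the harvests. Of all tested probe sets 1.21% were higher and 0.400% lower in control roots, and 0.907% lower in starved roots. The signals themselves, without the added 16, were more than 2-fold apart in control roots for EXPA15 (153.8 to 69.5) and EXLA3 (59.99 to 29.7). For EXPB2 the mean of 0.70 ± 0.18 (SE) was a 1.62-fold higher level with an adjusted p of 0.0242 from limma. Among the 10 other settings, the deposited values nearly repeat the main fit. The call held in 4 of the 10, with adjusted p-values from 0.0230 to 0.253 in limma. It held without the control 96 h array (adjusted p = 0.00463 in limma, no solution term) and ended without the control 48 h (0.320), starved 48 h (0.446) or starved 96 h array (0.214).

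**Figure D3:**
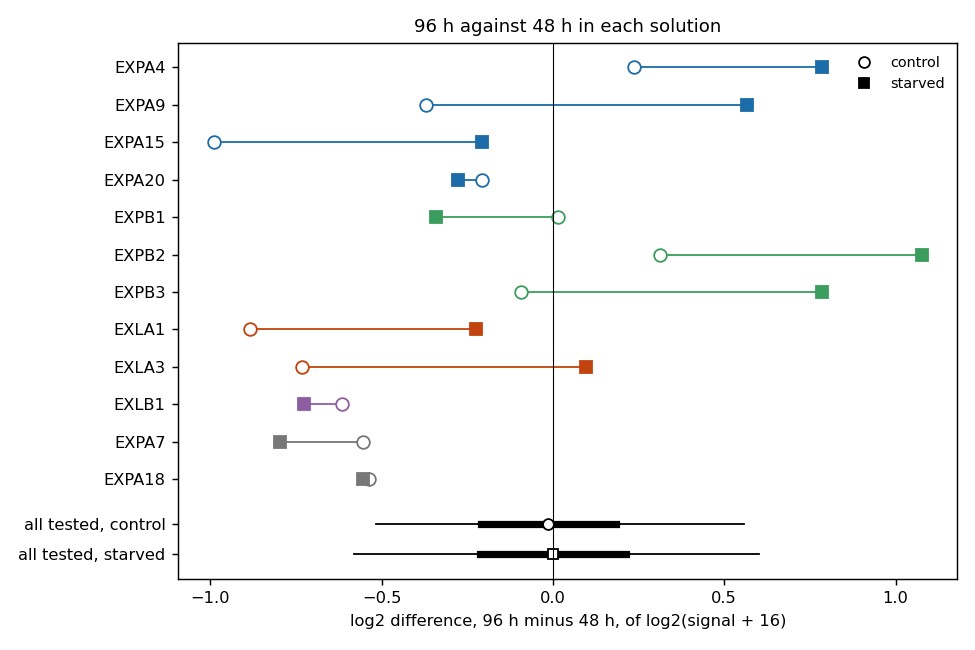
Difference of log2(signal + 16), 96 h minus 48 h, in control (open circles) and starved roots (squares) for the same genes, with the median and percentiles of all 13998 tested probe sets in the lower rows. EXLB1 lies at -0.62 and -0.73 and EXPB2 at 0.31 and 1.08, while EXLA1, EXLA3 and EXPA15 lie far below 0 in control roots and near 0 in starved roots.

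Other members differed between harvests in 1 solution more than in the other. EXPA15 differed by -0.99 in control and -0.21 in starved roots, and its mean of -0.60 ± 0.18 (SE) missed the threshold narrowly (limma, adjusted p = 0.0505). It was called in 1 of 10 other settings, with a pseudocount of 64 (adjusted p = 0.0481 in limma), and in the fit without the starved 96 h array. EXLA1 differed by -0.88 and -0.23 (adjusted p = 0.0596 in limma for the mean), and EXLA3 by -0.73 and 0.10. These genes had been highest on the control 48 h array, which enters this comparison as well as the starvation difference at 48 h.

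EXPA4, EXPB3 and EXPA9 differed more in starved roots, by 0.79, 0.79 and 0.57, than in control roots, by 0.24, -0.09 and -0.37. None of these passed for time in limma over both solutions (adjusted p = 0.0744 for EXPA4, 0.304 for EXPB3 and 0.823 for EXPA9). The solutions' differences were not tested against each other. EXPA20 differed by -0.21 and -0.28, and EXPB1 by 0.01 and -0.34.

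Of the 10 tested members, 3 stood higher at 96 h in control roots and 5 in starved roots. Of all tested probe sets 48.2% and 49.9% did. The root hair expansins EXPA7 and EXPA18 both fell in the limma test for time (adjusted p = 0.0106 and 0.0326), by 0.68 and by 0.55 on the log2 scale. Their log2 differences were -0.56 and -0.80 for EXPA7 and -0.54 and -0.55 for EXPA18 in control and starved roots.

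**Figure D4:**
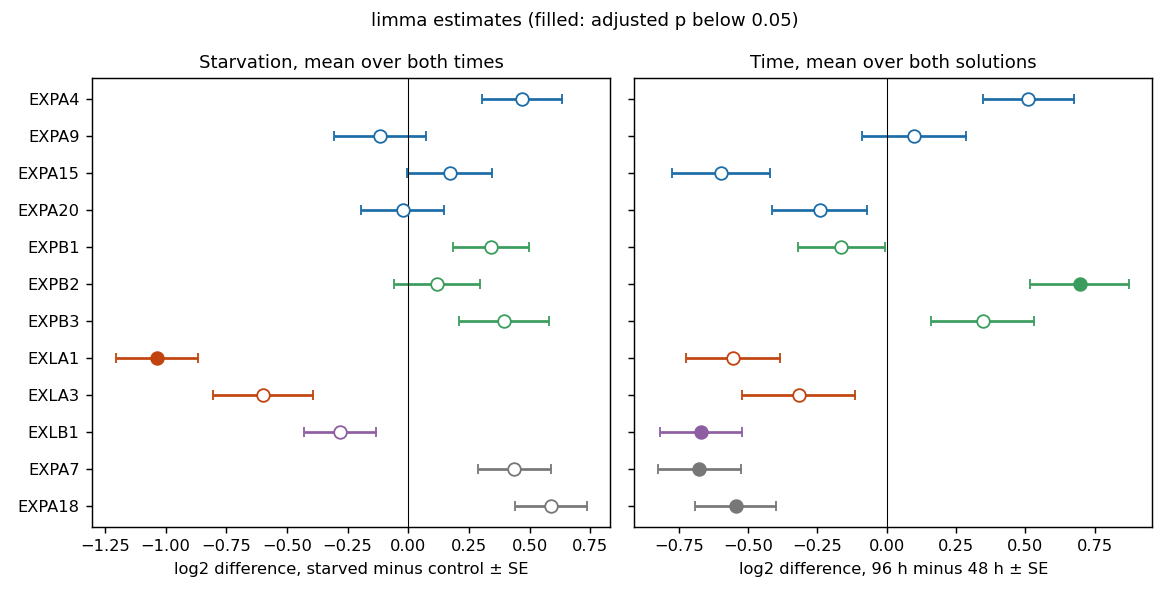
limma estimate ± SE of the starvation difference (left, mean over both times) and of the time difference (right, mean over both solutions) on the log2 scale for the tested expansins, with the root hair expansins in grey and filled points for an adjusted p below 0.05. EXLA1 at -1.04 is the filled point on the left; EXLB1 at -0.67, EXPB2 at 0.70, EXPA7 at -0.68 and EXPA18 at -0.55 are those on the right.

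The 6 members below the filter had low signals in every sample. EXPB5 (AT3G60570) was closest to it, at 20.8 in control against 14.5 in starved roots after 48 h and 15.8 against 21.5 after 96 h, and EXLA2 reached 21.8. Just inside the filter lay EXLA3, with 59.99 and 29.7 on the 2 arrays that carried it, and EXPA20, whose 4 values ran from 31.1 to 41.1. EXPA16 (AT3G55500) measured 5.93 to 11.1 over the 4 arrays.

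EXPA8 (AT2G40610), an alpha-expansin, was listed at 2.32 in control against 12.0 in starved roots after 48 h, and at 2.34 against 19.0 after 96 h. Both starved values exceeded both control values, but all 4 were far below the 40th percentile. On chromosome 5 EXPA21 (AT5G39260) and EXPA24 (AT5G39310) enclose 4 further alpha-expansin genes in the RefSeq order, which makes a run of neighbouring alpha-expansins. EXPA21 measured 1.18 to 4.63 and EXPA24 1.05 to 6.26. The probe sets that list a pair of the genes between them reached at most 4.27 (EXP26 and EXPA22) and 3.44 (EXPA25 and EXPA23), so no probe set of this run was above the filter in these roots.

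**Figure D5:**
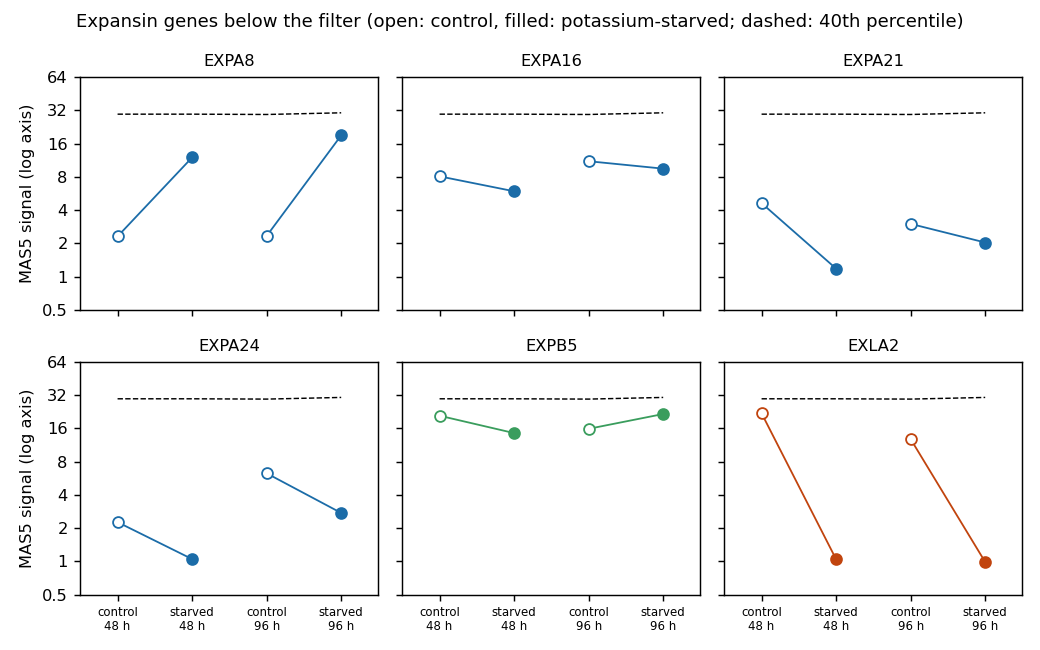
MAS5 signal (log axis) on each array of the 6 expansin genes that were below the 40th percentile (dashed) on all 4 arrays, with open points for control and filled points for starved roots. EXLA2 drops to 1.04 and 0.986 in starved roots and EXPA8 stands at 12.0 and 19.0 there, while the others stay between 1.05 and 21.5.

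Other genes of wall loosening and wall synthesis were set beside the expansins. The xyloglucan endotransglucosylase/hydrolases (XTH), enzymes that cut and rejoin the xyloglucan chains between microfibrils, had 9 of 30 genes with a probe set of their own and 7 tested. In limma 0 of these 7 passed for starvation, with 1 at an unadjusted p below 0.05 (7.39% of all tested probe sets), and 2 fell from 48 h to 96 h (3.24% of all tested probe sets). Those were XTH26, an enzyme of root hairs, at -1.27 ± 0.17 (SE, adjusted p = 0.000159), and XTH16 at -0.60 ± 0.17 (SE, adjusted p = 0.0431). XTH26 entered the test through its 48 h arrays alone (60.03 and 77.2, against 14.2 and 24.3 at 96 h). A lower 96 h level was therefore built into its selection, and its call cannot be set against the 3.24%. The median of the 7 was -0.02 for starvation, against -0.01 for all tested probe sets. For time the median was -0.50, but XTH26 counts in it, so it is not set against that of all tested probe sets. XTH33, which did not pass, had the widest mean starvation difference of the list, -0.65 over both times (-0.59 at 48 h and -0.70 at 96 h, adjusted p = 0.150 in limma), and XTH20 read 98.6 in control against 88.0 in starved roots after 48 h and 68.6 against 135.5 after 96 h.

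The GH9 endoglucanases, a family of wall and cellulose-trimming hydrolases, had 15 of 22 genes with a probe set of their own and 6 tested. Neither effect was called for any of the 6 in limma, with 1 at an unadjusted p below 0.05 for starvation and 1 for time, against 7.39% and 21.0% of all tested probe sets. GH9C1 stood at 0.34 at 48 h and 0.29 at 96 h, starved minus control, and GH9C2 at 0.01 and 0.40. GH9B13, GH9A3, GH9B7 and GH9B8 had means below 0, from -0.20 to -0.05, and GH9B13 stood at -0.56 at 48 h and 0.17 at 96 h. The median of the 6 was -0.06 for starvation and -0.07 for time. CSLC04, which makes the glucan backbone of xyloglucan, was the 1 tested gene of 7 for xyloglucan synthesis, at -0.34 and -0.32 (mean -0.33 ± 0.15 SE, adjusted p = 0.616 in limma). None of the 11 plasma membrane proton pump genes, which acidify the wall, and none of the 10 cellulose synthase genes had a probe set with 1 listed gene. Of 18 pectin enzyme genes PME61 alone had one, and it was below the filter, at 18.1 to 23.5. LBD16, a regulator of lateral root formation, was the 1 tested of 3 lateral root genes, at 57.9 against 64.6 after 48 h and 57.9 against 56.3 after 96 h, with 0 called for either effect.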

How the data were processed

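Root RNA was measured on 4 arrays, 1 per group. The deposited values are linear-scale intensities, 1 per probe set and array, which the authors derived with MAS5 according to the submitters' processing notes. No version or setting of MAS5 is given in the sources used here. The deposited arrays had a 2% trimmed mean of 100.01 each. Each was scaled to 100, 64 control probe sets were set aside, and log2(signal + 16) was taken. Probe sets at or above their array's 40th percentile on at least 2 of 4 arrays were tested (13998 of 22746). Gene names came from the platform annotation, which lists 1 gene for 13513 probe sets, several for 503 and none for 8730; 13436 of the 13513 matched RefSeq TAIR10.1 by Entrez identifier. The RefSeq table served for names and gene order alone.

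limma 3.58.1 in R 4.3.3 fitted solution and time to all 4 arrays (eBayes with an intensity trend, 1 residual degree of freedom), with Benjamini-Hochberg adjustment over all tested probe sets and a threshold of 0.05. The residual is the difference of the starvation difference between the times. The prior had 14.94 degrees of freedom, so an SE draws on other probe sets far more than on replicates, and p-values may be too small. The fit was also run on simulated data whose noise followed the fit's own variances, which cannot show whether the p-values here are too small. Precision is limited by the small number of arrays.

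All 16 members were named, those tested with every value. From each further list, genes called were named, with up to 2 others by the largest starvation difference. Members and lists were chosen with earlier results of these data known. Alternatives changed the pseudocount, scaling, filter, model and arrays.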

Additional observations from a re-analysis of the deposited data

Results flagged for a closer look

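EXPA9 ran in opposite directions at the 2 times, with a log2 difference, starved minus control, of -0.58 at 48 h and 0.35 at 96 h. EXPB2 did so with -0.27 at 48 h and 0.50 at 96 h. In each case both differences were wider than the SD over all tested probe sets (0.237 at 48 h and 0.295 at 96 h). The difference between the times was not tested, because each group held 1 array.

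EXPA8 was left out of the test by the filter, but its signal on the starved arrays was 12.0 at 48 h and 19.0 at 96 h, above the control values of 2.32 and 2.34. On the log2(signal + 16) scale the starved level was 1.53-fold and 1.91-fold the control level. All these values lay below the 40th percentile of their arrays.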

How the results depend on the processing

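The number of expansins called for starvation was 1, and it was 0 with a pseudocount of 1 (3 members at an unadjusted p below 0.05 in limma), with equal medians (3), after cyclic loess (4), with no filter (5), with a 60th-percentile filter (2) and with the solution term alone (1). The number called for time was 2, and it was 3 with a pseudocount of 64, which added EXPA15, 1 with a pseudocount of 1, equal medians, cyclic loess or the 60th percentile, and 0 without the filter (5) or with the time term alone (3). Fits without 1 array, which also lacked the other term, called 0 for starvation (1 to 4 unadjusted) and 0 to 4 for time. The 4 called without the control 96 h array were EXLB1, EXPB2, EXPA4 and EXPB3, and the 1 called without the starved 96 h array was EXPA15. Over all probe sets the 27 starvation calls became 0 to 28 and the 1029 time calls 23 to 1123. The cause was not tested.

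The median log2 difference of the tested expansins was 0.26 for starvation at 96 h, and it was 0.053 without the filter and 0.50 with the 60th percentile. For time it was -0.29 in control roots, -0.16 without the filter. In starved roots it was -0.06, and it was 0.12 without the filter and 0.57 with the 60th percentile, where the genes counted differ. At 48 h the starvation median of -0.22 stayed within 0.1 in all settings that gave one. EXLA3, whose selection built in a lower starved level, counts in the starvation medians of the main fit at both times. It was not tested with the 60th percentile.

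No mean difference of a tested member changed sign under the settings that kept all 4 arrays. Of these, a change of filter or model could not alter a mean difference, and the deposited values nearly repeat the main scaling. Leaving out 1 array turned the sign of some uncalled mean differences. These fits also lacked the other term. The difference between the times therefore enters their starvation values, and the difference between the solutions enters their time values. For starvation the ranges were -0.65 to 0.081 for EXLB1, -0.40 to 0.17 for EXPA9, -0.16 to 0.12 for EXPA20, -0.42 to 0.66 for EXPB2 and -0.33 to 0.67 for EXPA15. For time they were -1.24 to 0.13 for EXLA1, -0.82 to 0.19 for EXLA3, -0.19 to 0.39 for EXPA9, -0.42 to 0.10 for EXPB1 and -0.072 to 0.76 for EXPB3. No pairing of replicates was possible because the groups share only replicate number 1. The main limma fit did compare the solutions within each time and the times within each solution.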

Other observations

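Among the wall genes below the filter, GH9C3, an endoglucanase gene, was listed at 17.8 and 2.02 in control and starved roots at 48 h and at 18.7 and 2.42 at 96 h. It shared with EXLA2 the order of the arrays by solution, with both starved values near the floor. GH9B16 was listed at 1.73, 4.59, 4.30 and 22.7 on the control 48 h, starved 48 h, control 96 h and starved 96 h arrays. Both were named after their values were seen, and neither was tested.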
